A study of Mus musculus with 3 samples.

Results

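Barcodes of dissociated mouse dentate gyrus in which 10 to 30% of unique molecular identifiers (UMIs, the tags that count single RNA molecules) came from mitochondrially encoded genes were described against barcodes under 10%. Members were chosen by their own mitochondrial share, with at least 200 detected genes, and the lower limit belonged to the band while the upper limit did not. The band held 859 of 7532 such barcodes, out of 8105 deposited. Another 1876 barcodes lay under 10% and 4797 at 30% or more. The 3 libraries were droplet-based 3′ libraries, 1 per group: 8-week-old littermates of the controls given a running wheel for 12 days (runner), mice aged 14 months without a wheel (aged), and mice of 8 weeks in standard housing (control). Every sample is labelled with the strain hGFAP-eGFP, a line in which a human GFAP promoter drives a green reporter in astrocytes and stem cells, whereas the series text calls the animals WT and mentions the reporter only with the 14-month group. The tissue was digested with trypsin and passed through sucrose and a density step, no sort is described, and the labels do not say how many mice made up a library. With 1 library per group, group and library cannot be told apart and no test between groups was possible. All intervals are exact 95% intervals that cover counting error only.

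A cell carries RNA in separate places. Malat1 and other long noncoding RNAs stay in the nucleus. Messenger RNAs (mRNAs) for ribosomal proteins and for the nuclear-encoded subunits of the respiratory chain are translated in the cytoplasm. A small set of neuronal mRNAs, Camk2a among them, is carried into dendrites, far from the cell body. The RNA of the mitochondrial genome stays inside mitochondria. A high share of mitochondrial RNA is often used to set aside damaged cells or fragments in single-cell data, and the barcodes described here lie where such limits are usually placed.

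The band took a larger share of the control library than of the other libraries. It held 217 of 2959 runner barcodes (7.33%, interval 6.42 to 8.33), 200 of 2270 aged barcodes (8.81%, 7.68 to 10.1) and 442 of 2303 control barcodes (19.2%, 17.6 to 20.9). Members were spread over the band, with medians of 19.1%, 18.8% and 19.2% mitochondrial UMIs in the runner, aged and control libraries. The median member held 914 UMIs outside mitochondrial genes in the runner library, 877.5 in the aged and 655.5 in the control library, against 1695, 1353 and 1369.5 in barcodes under 10%. Mitochondrial UMIs per barcode ran the other way, with medians of 226, 196 and 166.5 in the band against 58, 64 and 68 under 10%. Members had both fewer other UMIs and more mitochondrial UMIs. Both counts enter the share that chose the members, so these differences are described only. Band members of different libraries shared no cell barcode.

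Clustered with the mitochondrial genes left out, the members fell mostly into the same classes as the barcodes under 10%, in other proportions. Astrocyte-like barcodes, led by markers such as Gja1, the gap-junction protein connexin 43, and Cldn10, made up 31.3% of the runner band, 29.5% of the aged band and 22.9% of the control band, against 13.5%, 13.2% and 12.6% of the barcodes under 10%. Microglia-like barcodes, led by genes such as Tmem119 and the complement genes C1qa and C1qb, made up 20.3%, 36.0% and 29.4% of the runner, aged and control bands, against 35.7%, 50.6% and 47.3% under 10%. The astrocyte-like share was higher in the band in each library, and the intervals of the paired sets did not overlap. The microglia-like share was lower, but this depended on setting cluster 5a apart by a reclustering chosen after seeing the data. Without it the microglia-like shares were 35.0%, 41.5% and 38.2% of the runner, aged and control bands, against 35.9%, 51.1% and 47.5% under 10%, and the intervals overlapped in the runner and aged libraries. Oligodendrocyte-like barcodes made up 6.45%, 7.50% and 3.39% of the runner, aged and control bands, against 11.4%, 12.0% and 7.39% under 10%. All members together comprised 246 microglia-like, 228 astrocyte-like, 56 Cajal-Retzius-like, 52 granule neuron-like, 51 oligodendrocyte precursor-like, 47 neuroblast-like, 44 oligodendrocyte-like and 14 endothelial-like barcodes, 8 cycling and 1 perivascular macrophage-like barcode, with 82, 26 and 4 in the unnamed clusters 5a, 12 and 14. The classes were built from the same barcodes that the mitochondrial share sorted, so these shares are descriptions.

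**Figure D1:**
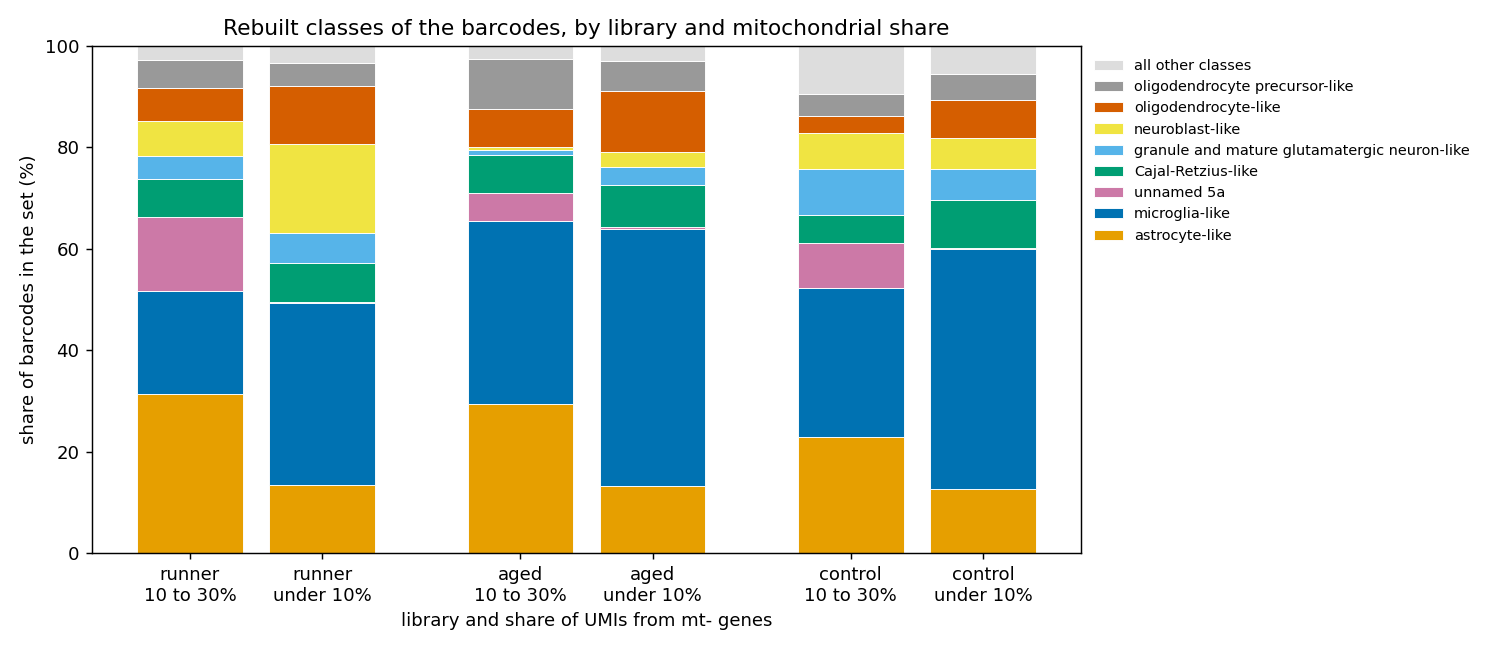
Shares of barcodes by rebuilt class (y axis, percent of the set) for barcodes with 10 to 30% and under 10% mitochondrial UMIs in the runner, aged and control libraries. Astrocyte-like barcodes rise from the base of each bar to 31.3%, 29.5% and 22.9% in the band, and the unnamed cluster 5a is visible almost only in the band.

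The share of each class that lay in the band differed between libraries. Of microglia-like barcodes under 30%, 11.3% (interval 8.32 to 14.8) were members in the runner library, 26.6% (21.4 to 32.3) in the aged and 34.9% (30.0 to 39.9) in the control library. Of astrocyte-like barcodes, 34.2%, 53.2% and 60.8% were members in the runner, aged and control libraries. Neuroblast-like barcodes, led by Sox11, Calb2 and Dcx, numbered 15 members beside 170 barcodes under 10% in the runner library (8.11% members), 1 beside 12 in the aged (7.69%) and 31 beside 32 in the control library (49.2%). Granule neuron-like barcodes followed the same order, with 14.7%, 12.5% and 56.3%, and the aged value rested on 2 members beside 14 barcodes under 10%. Within each library the astrocyte-like share exceeded the microglia-like share, and their intervals did not overlap.

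A group of 82 members, 9.55% of the band, formed cluster 5a, which took no cell type name. Its leading genes were Psd, Cnih2, Fbxl16, Ncs1, Shank1, Adcy1, Ddn, Agap2, Ppp1r9b and Camk2a, most of them genes of the postsynaptic side of neurons. It held 32 runner, 11 aged and 39 control members but only 5 barcodes under 10% (0.267% of those). Malat1 was not detected in 46.0% of its 87 barcodes, and their median mitochondrial share was 26.4%, close to the upper limit of the band. The dendritic mRNA list, 11 mRNAs known to be carried into dendrites, stood at 166 UMIs per 10000 non-mitochondrial UMIs in this cluster. Astrocyte markers (67.1 per 10000) and microglia markers (74.8 per 10000) were also present in it, and hemoglobin genes stood at 483 per 10000.

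A second small cluster showed low nuclear RNA without a high mitochondrial share. Cluster 5c held 43 microglia-like barcodes, of which 18 were members (8 runner, 9 aged, 1 control), and its median mitochondrial share was 8.38%. Nuclear long noncoding RNA stood at 51.5 per 10000 there, against 433 per 10000 in the microglia-like cluster 5b, in which 79 of 84 barcodes were members. Malat1 was not detected in 62.8% of the barcodes of 5c and in none of 5b. Microglia markers reached 520.2 per 10000 in 5c and 318 per 10000 in 5b, so low nuclear RNA and high mitochondrial share did not always go together.

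Nuclear long noncoding RNA was lower in the band in each library. The list had 14 genes, of which 12 or 13 were present in a library's table, and together they gave 614 UMIs per 10000 non-mitochondrial UMIs in the runner band, 665 in the aged band and 574 in the control band, against 888, 1018 and 880.5 under 10%. The ratios were 0.691 (interval 0.679 to 0.703) in the runner, 0.654 (0.642 to 0.666) in the aged and 0.652 (0.642 to 0.663) in the control library, and no band level reached that of any set under 10%. At 30% or more the level was 27.2, 52.8 and 65.2, far under that of the band. Malat1 (chr19:5795690-5802672, minus strand, GRCm38), the abundant nuclear speckle RNA, accounted for nearly all of it, with 590 per 10000 in the runner band, 638 in the aged and 554 in the control band, against 864, 986 and 858 under 10%. Neat1, the scaffold of paraspeckles, had ratios of 0.830, 0.940 and 0.848, much nearer to equality. Meg3, a maternally expressed RNA abundant in neurons, had ratios of 0.961, 0.430 and 0.914, with the aged library low. None of the 6 nuclear RNAs above the UMI minimum given below reached 1.5-fold in all 3 libraries, Malat1 included, at ratios of 0.683, 0.647 and 0.646.

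Members varied widely in nuclear RNA. Malat1 made up a median of 3.63% of a member's non-mitochondrial UMIs in the runner library, 5.00% in the aged and 4.03% in the control library, against 7.80%, 8.97% and 7.38% under 10%. After each barcode was thinned to 400 non-mitochondrial UMIs, Malat1 was not detected in 33 of 194 runner members (17.0%, interval 12.0 to 23.1), 13 of 200 aged members (6.50%, 3.51 to 10.9) and 30 of 442 control members (6.79%, 4.63 to 9.55), against 2.58%, 0.763% and 1.36% under 10%. The thinning left out 23 runner members that held fewer UMIs. Without thinning the shares were 17.5%, 6.0% and 5.88% in the band, against 2.17%, 0.509% and 1.17% under 10%. At 30% or more, Malat1 was not detected in 61.8% of 823 runner, 55.2% of 882 aged and 54.6% of 681 control barcodes that held enough UMIs to be thinned. Most members therefore kept Malat1, and a minority did not.

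**Figure D2:**
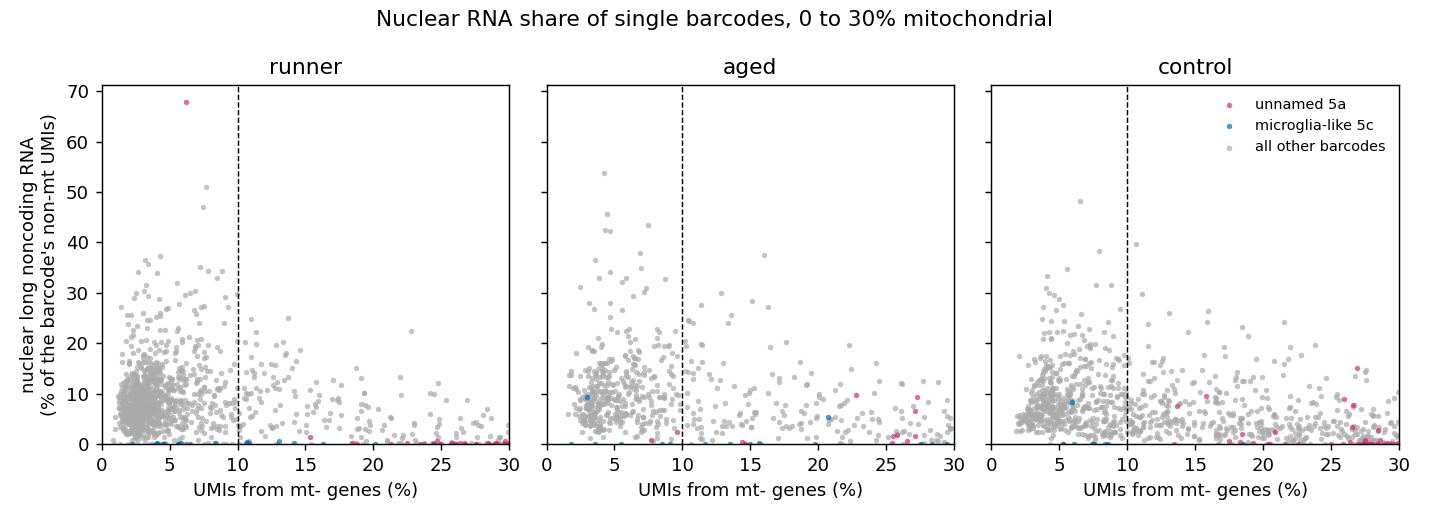
Nuclear long noncoding RNA (y axis, percent of the non-mitochondrial UMIs of a barcode) against the share of UMIs from mt- genes (x axis, percent) for single barcodes under 30% in the runner, aged and control libraries, with cluster 5a and microglia-like cluster 5c coloured. The dashed line marks 10%, and barcodes near 0 on the y axis gather toward 30% and in the 2 coloured clusters.

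Cytoplasmic mRNA lists did not move as a block. The list of 86 ribosomal protein mRNAs gave 1201 UMIs per 10000 in the runner band, 1354 in the aged and 1374 in the control band, against 909.7, 938 and 991 under 10%. The list of 85 nuclear-encoded respiratory chain mRNAs gave 450.4, 399 and 465 per 10000, against 274, 236 and 289, with ratios of 1.64 (interval 1.61 to 1.68), 1.69 (1.65 to 1.74) and 1.61 (1.58 to 1.64). Both lists were higher in the band in each library. The 20 abundant cytosolic mRNAs, such as Tmsb4x and Eef1a1, gave ratios of 0.759, 0.938 and 0.993, and the 23 mRNAs for mitochondrial import, chaperones and mitochondrial gene expression gave 0.975, 1.11 and 1.04. Nuclear-encoded genes of mitochondria thus differed among themselves, since the respiratory chain list was higher and the import list lay near equality.

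Genes were called when the band differed from the barcodes under 10% by at least 1.5-fold in the same direction in all 3 libraries, among 1160 genes with at least 100 UMIs in each library. Of these, 126 were higher in the band (10.9%) and 126 lower (10.9%), and the median log2 ratio over all 1160 genes was -0.17. The rule that chose the members used this same contrast, so the counts are given beside the background of 10.9% and nothing is read from them. With all UMIs in the denominator, mitochondrial ones included, 81 were higher and 250 lower.

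The respiratory chain list had 64 tested members, of which 14 were called higher and none lower, beside 10.9% each way over all 1160 tested genes. Its median log2 ratio was 0.43. The 14 included subunits of cytochrome c oxidase (Cox4i1, Cox5b, Cox6a1, Cox6b1, Cox6c, Cox7a2, Cox7c and Cox8a), of complex I (Ndufa1, Ndufa3 and Ndufb9), of ATP synthase (Atp5k) and of the cytochrome bc1 complex (Uqcr11), together with Ndufa4. Cox8a stood at 44.6 per 10000 in the runner band, 46.5 in the aged and 48.6 in the control band, against 12.1, 13.2 and 16.7 under 10%. It was close to 3-fold higher or more in each library, with ratios of 3.67, 3.52 and 2.91. Cox6a1 stood at 24.3, 21.3 and 26.1 per 10000, against 7.77, 7.54 and 10.1, and Ndufb9 at 11.4, 10.9 and 11.9 per 10000, against 3.76, 4.28 and 4.93. The other 50 members were short of the call.

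Of 80 tested ribosomal protein mRNAs, 11 were called higher and none lower, with a median log2 ratio of 0.36. The number called higher was near the share over all 1160 tested genes, 10.9%, so it is not read as a result about the list. Rps21 stood at 17.2 per 10000 in the runner band, 20.2 in the aged and 19.9 in the control band, against 7.05, 9.12 and 9.36 under 10%. Rpl37 stood at 45.1, 51.6 and 58.1 per 10000, against 22.3, 24.6 and 28.1. Both encode small ribosomal proteins and were a little over 2-fold higher in each library. The other 9 were Rpl31, Rpl35a, Rpl37a, Rpl38, Rpl41, Rplp1, Rps15, Rps2 and Rps29. Ribosomal protein genes have many processed pseudogenes, so their counts may have been divided between copies in a way the tables do not show.

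The dendritic list contained several of the highest ratios. All 6 of its 11 members that reached the UMI minimum were called higher: Camk2a, Ddn, Map2, Shank1, Psd and Ppp1r9b. Over all 1160 tested genes 10.9% were called higher. Camk2a, a kinase of synaptic plasticity, stood at 18.9 per 10000 in the runner band, 16.2 in the aged and 17.2 in the control band, against 2.52, 3.03 and 4.35 under 10%. Psd, an exchange factor for the small GTPase Arf6, stood at 3.60, 3.56 and 3.76 per 10000, against 0.404, 0.798 and 0.750. Ddn, which encodes the postsynaptic protein dendrin, stood at 7.03, 7.70 and 9.50 per 10000, against 0.836, 1.66 and 2.51. Shank1, a postsynaptic scaffold, had ratios of 5.46, 6.51 and 3.22, and each of these genes was higher still at 30% or more, where Camk2a reached 67.2, 51.3 and 56.7 per 10000. Dlg4, which encodes the scaffold PSD-95 and lay under the UMI minimum, had ratios of 6.09, 5.13 and 4.34. Nrgn, also under the minimum, had 1.28, 1.14 and 1.01, and so stood apart from the rest of its list.

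Other genes ranked beside them. Kif5a, a kinesin motor of neurons, stood at 7.62 per 10000 in the runner band, 6.54 in the aged and 5.26 in the control band, against 0.923, 1.09 and 1.24 under 10%. Nrsn1, a neuronal vesicle membrane protein, had ratios of 5.74, 3.94 and 5.36, and Cpe, an enzyme of prohormone processing, had 4.91, 3.49 and 3.42. Vps8, a subunit of an endosomal tethering complex, had ratios of 8.82, 5.25 and 3.11. Sfxn5, a protein of the mitochondrial inner membrane, had 3.65, 3.33 and 4.24. AC161763.1 had the highest rank, with ratios of 10.3, 6.22 and 4.76, and is named in no annotation used here.

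The third gene by rank, Gm28438, was a copy of a gene that the member rule itself counted. It is annotated as an unprocessed pseudogene at chr1:24612775-24613119 (minus strand, GRCm38), and its 345-base transcript was aligned to those of the mitochondrial genes in GENCODE M21. It matched mt-Nd3, a subunit gene of complex I, over all 345 bases with 1 mismatch (99.71% identity). The first 60 bases of both are shown because they hold that mismatch, in capitals.
Gm28438: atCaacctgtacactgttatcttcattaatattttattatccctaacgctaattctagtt
mt-Nd3: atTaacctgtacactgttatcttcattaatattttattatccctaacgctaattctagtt
Gm28438 had 389 UMIs in the runner band, 461 in the aged and 938 in the control band. The mitochondrial gene mt-Nd3 had only 29, 15 and 4 UMIs there. Per 10000 non-mitochondrial UMIs, Gm28438 stood at 16.3, 20.5 and 26.1, against 2.65, 4.53 and 6.0 under 10%. Reads of the pseudogene and of mt-Nd3 cannot be told apart over nearly their whole length, so the values of both are uncertain.

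The astrocyte list was higher and the microglia list lower in the band. Astrocyte markers were not alone in this. The neural stem cell list had ratios of 2.00, 1.37 and 2.05 in the runner, aged and control libraries, with none of its 3 tested members called. The oligodendrocyte precursor list had 2.05, 1.70 and 0.973. The granule neuron list, which shares Camk2a and Nrgn with the dendritic list, had 2.17, 2.03 and 1.76. The 13 astrocyte markers together gave 146 per 10000 in the runner band, 106 in the aged and 109.8 in the control band, against 38.9, 46.8 and 44.0 under 10%. Of the 13, 10 were called higher and none lower, beside 10.9% each way over all 1160 tested genes. Slc1a2, the main glutamate transporter of astrocytes, stood at 45.1, 29.4 and 30.6 per 10000, against 6.90, 8.51 and 8.23. Aldoc, a glycolytic enzyme, stood at 21.8, 14.4 and 16.9 per 10000, against 7.00, 6.64 and 7.14. Both were higher in the band in each library. Clu, Gja1, Gpr37l1, Ntsr2, Plpp3, S1pr1 and Slc1a3 were among the others called, and the water channel Aqp4, with ratios of 5.24, 1.34 and 2.59, missed the call through the aged library. Within astrocyte-like barcodes the list stood at 383, 318 and 324 per 10000 in the runner, aged and control bands, against 291, 309 and 299.8. The difference was largest in the runner library, and the aged interval of 0.970 to 1.10 for the ratio included 1. Within microglia-like barcodes the astrocyte list stood at 41.9, 26.0 and 31.0 per 10000, against 6.0, 7.40 and 8.17. It was higher in the band in all 19 pairs of a class and a library with at least 10 barcodes in both sets. This was not particular to astrocyte markers. Granule neuron markers were higher in 17 pairs and lower in 2, microglia markers higher in 14 and lower in 5. Oligodendrocyte markers were higher in 13 and lower in 6.

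The 14 microglia markers together gave 92.6 per 10000 in the runner band, 144 in the aged and 104 in the control band, against 177, 258 and 215 under 10%. Of the 14, 12 were called lower and none higher, beside 10.9% each way over all 1160 tested genes. P2ry12, the ADP receptor of microglia, stood at 7.24, 8.81 and 6.49 per 10000, against 16.2, 20.6 and 17.4. Tmem119, a microglial surface protein, stood at 2.81, 5.65 and 3.62 per 10000, against 8.16, 12.3 and 9.39. C1qa, a chain of complement C1q, stood at 14.6, 23.9 and 16.9 per 10000, against 28.4, 40.7 and 34.5. Genes outside the list were also among the 12 lowest. Selplg, a ligand of selectins, had ratios of 0.379, 0.377 and 0.370, and Pld4, a lysosomal nuclease, had 0.436, 0.428 and 0.432. Cyth4, Hpgds, Bin2, Ifngr1, Slc15a3 and the septin gene Sept4 were others. Csf1r and Tyrobp were the microglia markers short of the call. Within microglia-like barcodes the list still stood lower, at 395, 399 and 323 per 10000 in the runner, aged and control bands, against 531, 518 and 453, with ratios of 0.744, 0.770 and 0.714. Over all 19 pairs of class and library, however, the microglia list was higher in the band in 14 and lower in 5.

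Myelin genes were split. Of 10 tested oligodendrocyte markers, 6 were called lower, and the summed list gave 101, 64.5 and 49.4 per 10000 in the runner, aged and control bands, against 149.5, 106 and 82.4 under 10%. Cnp, a myelin enzyme, stood at 4.23, 2.05 and 2.20 per 10000, against 11.1, 5.86 and 5.46. Mbp and Mobp, whose mRNAs are known to be carried into the processes of oligodendrocytes, lay on the other side of equality. Mbp stood at 23.9, 18.6 and 20.2 per 10000, against 17.5, 14.1 and 14.2, and Mobp had ratios of 1.15, 1.15 and 1.11; neither reached 1.5-fold. At 30% or more, Mbp stood at 45.6, 39.0 and 46.8 per 10000 and Cnp at 1.25, 0.882 and 1.01.

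Genes induced within minutes of stimulation or tissue dissociation were lower. The list of 15 immediate early and dissociation stress genes gave 85.4, 101 and 123 per 10000 in the runner, aged and control bands, against 179, 214 and 232 under 10%. Of 13 tested members, 7 were called lower and none higher, beside 10.9% each way over all 1160 tested genes. Jun stood at 15.7, 17.0 and 23.3 per 10000, against 38.9, 51.0 and 53.8. Fos stood at 17.5, 19.5 and 20.4 per 10000, against 36.5, 41.3 and 45.5. Both encode subunits of the AP-1 transcription factor. Btg2, an antiproliferative gene, had ratios of 0.350, 0.288 and 0.470, and Jund, at 1.31, 1.06 and 0.992, did not share the difference. Of 20 abundant cytosolic mRNAs tested, 2 were called lower and none higher, beside 10.9% called lower over all 1160 tested genes. H3f3b, which encodes the replacement histone H3.3, was among those called lower, at 35.0, 38.1 and 53.5 per 10000 against 88.1, 77.5 and 102. Within microglia-like barcodes the immediate early list stood at 283, 214 and 326 per 10000 in the runner, aged and control bands, against 435, 381 and 425. Over all 19 pairs of class and library it was lower in the band in 14 and higher in 5. Its interval lay under 1 in 8 pairs and above 1 in 2. The list of 13 cell death and integrated stress response genes had ratios of 0.754, 0.703 and 0.694 in the runner, aged and control libraries. Within classes, no interval of that list left out 1. The lowest gene by rank, Gm26699 (chr6:38551531-38554007, minus strand, GRCm38), is a long intergenic noncoding RNA with ratios of 0.334, 0.352 and 0.296.

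The differences were graded along the mitochondrial share. From the bin of 10 to 15% to that of 25 to 30%, nuclear long noncoding RNA stood at 941, 570.4, 416 and 203 per 10000 in successive runner bins, at 733, 771, 675 and 382 in aged bins, and at 712, 629, 509.7 and 330.3 in control bins. It was lower from bin to bin except from the first to the second aged bin. In each library the bin of 5 to 10% lay above that of 0 to 5%, at 1022, 1076 and 914 per 10000 in the runner, aged and control libraries. In the aged and control libraries the fall from there to the bin of 10 to 15%, at the lower limit, exceeded each later fall inside the band. Dendritic mRNA stood at 24.3, 51.1, 73.7 and 86.2 per 10000 in the runner bins, 39.96, 34.3, 42.0 and 65.4 in the aged bins and 26.0, 36.7, 52.6 and 86.4 in the control bins. Respiratory chain mRNA went up through the 4 bins of each library to 669, 572 and 601 per 10000. Astrocyte markers were highest inside the band, at 176 per 10000 in both runner bins from 20 to 30%, beside 28.1 in the runner bin of 0 to 5% and 89.4 at 50% or more.

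**Figure D3:**
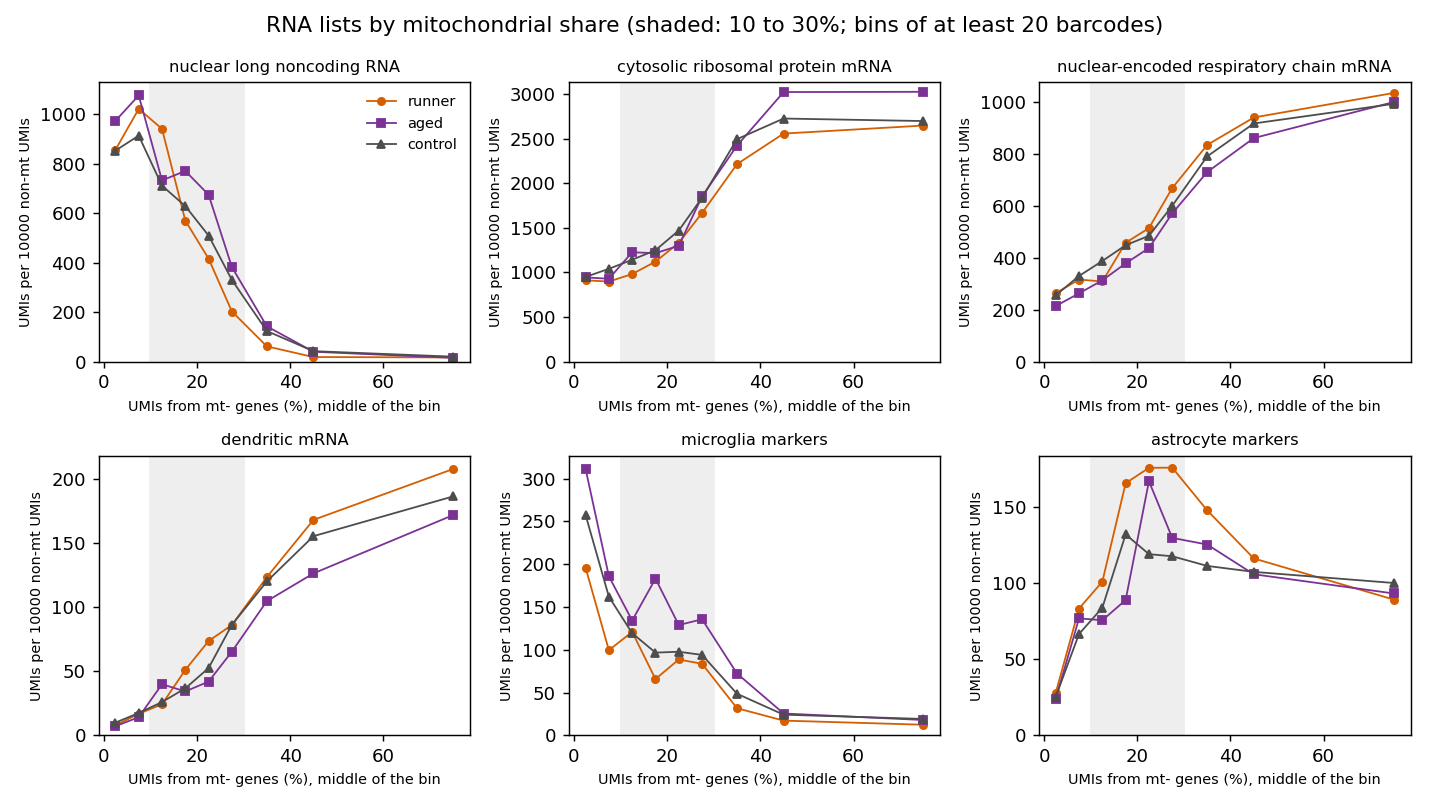
Summed levels (y axes, UMIs per 10000 non-mitochondrial UMIs) of 4 RNA lists and 2 marker lists by share of UMIs from mt- genes (x axes, percent, at the middle of each bin) in the runner, aged and control libraries, with the band shaded. Nuclear RNA ends the band lower than it enters it, ribosomal, respiratory chain and dendritic mRNA end it higher, and these 4 lists continue the same way from 30 to 50%.

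Barcodes just inside and just outside the limits are given as a description. From 10 to 12%, nuclear long noncoding RNA stood at 958, 829.6 and 736 per 10000 in the runner, aged and control libraries, against 864, 954 and 895 from 8 to 10%. From 28 to 30%, dendritic mRNA stood at 78.9, 76.9 and 89.9 per 10000, against 90.1, 74.99 and 86.0 from 30 to 32%. These windows held 21 to 88 barcodes each.

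Within a class the same lists differed in the same direction in most cases. In 19 pairs of a class and a library with at least 10 barcodes in both sets, nuclear long noncoding RNA was lower in the band in 17, with a median ratio of 0.748. Malat1, nearly all of that list, was lower in 17 (median 0.738). Neat1 was lower in 11 and higher in 4, with no interval that left out 1. Meg3 was lower in 6 and higher in 12 (median 1.17), so the nuclear RNAs did not move together. Ribosomal protein mRNA was higher in 18 of 19 (median 1.42), respiratory chain mRNA in 18 of 19 (median 1.31) and dendritic mRNA in 18 of 19 (median 4.39). The exceptions were granule neuron-like runner barcodes, with 10 members, for all 4 lists, and oligodendrocyte precursor-like aged barcodes for nuclear RNA, at 1241 per 10000 against 1215. In astrocyte-like barcodes nuclear RNA stood at 590.3, 876 and 855 per 10000 in the runner, aged and control bands, against 1479, 1895 and 1657, the lowest ratios of any class. In microglia-like barcodes it stood at 501, 412 and 349.8, against 597, 685 and 565. Different clusters held these classes in the paired sets. Of microglia-like members 45.1% lay in cluster 1 and 32.1% in 5b, against 59.6% in cluster 0 and 25.3% in cluster 1 under 10%. Of astrocyte-like members 46.9% lay in cluster 2 and 45.2% in 7a, against 64.5% in cluster 2 and 28.2% in 7b.

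**Figure D4:**
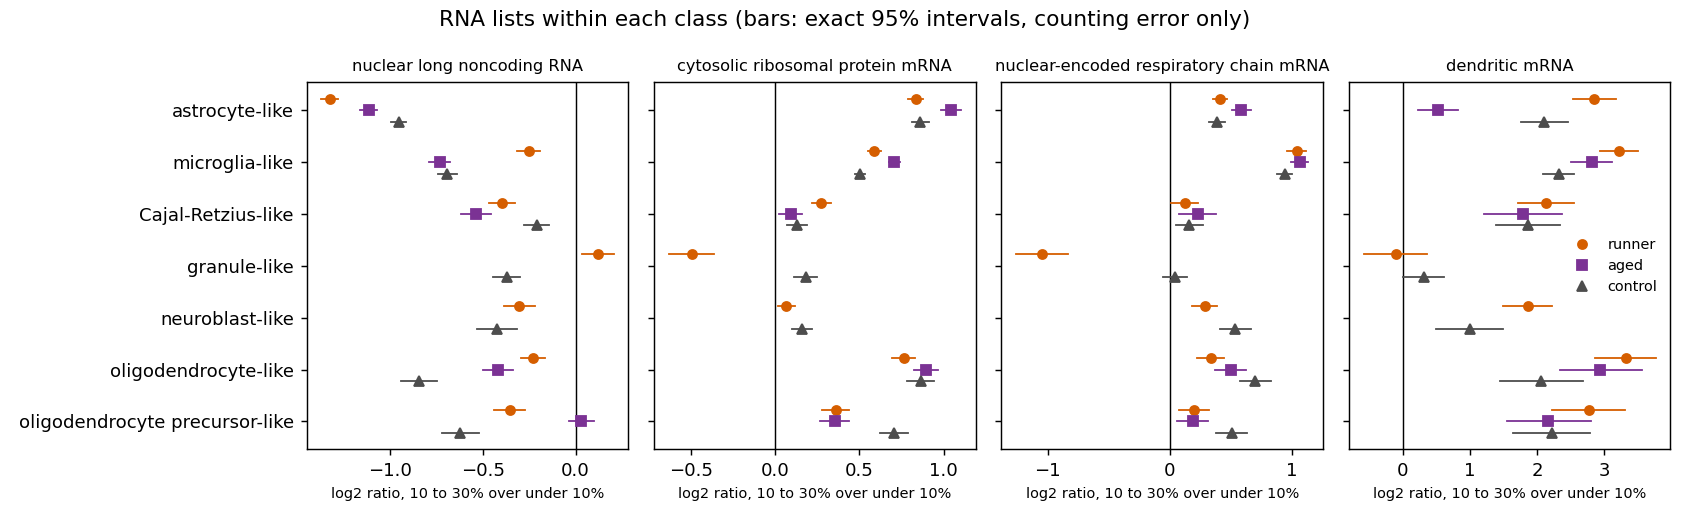
Log2 ratios of summed list levels, barcodes with 10 to 30% over barcodes under 10% mitochondrial UMIs (x axes), by class (rows) and library (colour and symbol), with exact 95% intervals for counting error. Nuclear long noncoding RNA lies left of 0 in 17 of 19 pairs and dendritic mRNA right of 0 in 18 of 19.

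Dendritic mRNA was present in classes that are not neurons, at like levels. It stood at 39.1, 34.5 and 39.3 per 10000 in microglia-like members of the runner, aged and control libraries, against 4.19, 4.92 and 7.87 under 10%. In astrocyte-like members it stood at 41.5, 34.4 and 42.9 per 10000, against 5.77, 23.9 and 10.0. The aged value under 10% rested on 1 barcode with 129 of the 174 UMIs, and without it the level was 6.52 and the ratio 5.27 in place of 1.44. Among neurons, Cajal-Retzius-like members held 41.1, 40.03 and 43.3 per 10000, against 9.36, 11.6 and 11.9. Granule neuron-like barcodes differed less, with 53.8 per 10000 in 40 control members against 43.4 under 10%. The source of dendritic UMIs in glial classes was not tested.

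The mitochondrial RNA itself differed between the sets in a few genes, mt-Atp8 most of all those described here. Its 31 listed genes were 13 protein-coding, 2 ribosomal RNA and 16 transfer RNA genes. Ribosomal RNA made up 19.8%, 25.3% and 19.2% of mitochondrial UMIs in the runner, aged and control bands, against 18.0%, 22.2% and 19.2% under 10%. The gene mt-Atp8, which encodes a subunit of ATP synthase, made up 1.39% (interval 1.29 to 1.49) of mitochondrial UMIs in the runner band, 2.17% (2.05 to 2.30) in the aged and 2.13% (2.04 to 2.23) in the control band, against 2.77% (2.65 to 2.90), 3.34% (3.14 to 3.54) and 3.87% (3.68 to 4.06) under 10%. It was 1.09%, 1.92% and 1.85% at 30% or more. The band was lower in each library, and in each of the 19 pairs of class and library, with ratios of 0.414 to 0.830. The gene overlaps mt-Atp6, whose share had ratios of 1.06, 1.07 and 1.10, so reads may have been divided between them and the value of mt-Atp8 is uncertain. The 12S ribosomal RNA mt-Rnr1 had a larger share in members, with ratios of 1.38, 1.29 and 1.14, and was higher in 18 of the 19 pairs. The cytochrome b gene mt-Cytb had a smaller share in each library, with 0.828, 0.866 and 0.969, and was lower in 17 of the 19 pairs. For both genes the intervals of the paired sets did not overlap in any library.

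**Figure D5:**
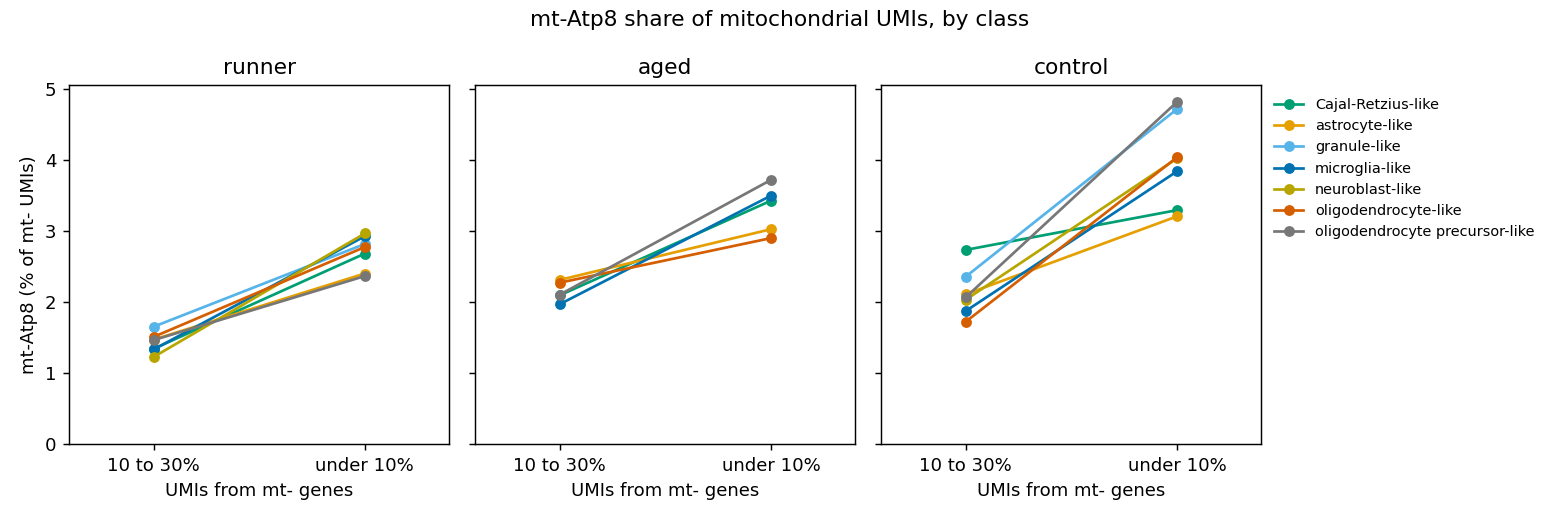
Share of mitochondrial UMIs that came from mt-Atp8 (y axis, percent, from 0) in barcodes with 10 to 30% and under 10% mitochondrial UMIs, with a line for each class of at least 10 barcodes in both sets, in the runner, aged and control libraries. Each of the 19 lines is lower on the band side.

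Markers of the vessel wall were higher in the band in each library, in few barcodes, and hemoglobin genes in the aged and control libraries. Endothelial markers gave 1.47 per 10000 in the runner band, 15.8 in the aged and 12.3 in the control band, against 0.461, 2.50 and 5.19 under 10%. At least 3 endothelial UMIs were held by 4 of 217 runner, 4 of 200 aged and 30 of 442 control members. The aged bin of 10 to 15% held 38.3 per 10000, and the later band bins 0.606, 0.237 and 0.479. Another setting, chosen after seeing the data, left out cluster 5a and the members rich in hemoglobin UMIs but kept such barcodes under 10%. There the mean log2 ratio of the endothelial list was 0.26 in place of 1.86. For members from 20 to 30% it was -0.28. Mural cell markers gave 0.377, 0.890 and 3.62 per 10000, against 0.156, 0.277 and 0.327. These were 9, 20 and 130 UMIs in the band, and the runner interval for the ratio began at 1.001. Members with at least 3 mural UMIs numbered 0 runner, 1 aged and 14 control. Hemoglobin genes gave 32.8, 197 and 122 per 10000, against 31.8, 31.7 and 2.80. They lay in few barcodes: 1 runner, 4 aged and 16 control members had at least 10% hemoglobin UMIs, against 2, 2 and 0 barcodes under 10%, where the interval for 0 of 514 control barcodes reached 0.715%. The unnamed cluster 12, led by Hba-a1, Hba-a2, Hbb-bs, Hbb-bt, Ly6c1 and Cldn5, held 4 aged and 22 control members and no runner barcode. Markers of neuroblasts gave 10.8, 2.27 and 6.13 per 10000 in the runner, aged and control bands, against 22.3, 5.06 and 8.34, and were lower in each library.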

How the data were processed

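Each library came as a deposited table of whole-number UMI counts by gene symbol and barcode. Cell Ranger 2.1.1, Seurat 3.1.0 and the build GRCm38 are named in the submitters' processing notes; how barcodes were called as cells is not given in the sources read. Each listed gene had UMIs in at least 3 barcodes. Totals were 3808360 UMIs in the runner, 2537567 in the aged and 2330698 in the control library.

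UMIs were summed over each set, and shares of non-mitochondrial UMIs were compared as ratios with exact conditional binomial intervals (SciPy 1.17.1). Shares of barcodes have Clopper-Pearson intervals. Log2 ratios add 0.5 counts. Barcodes under 30% were clustered without mt- genes (Scanpy 1.11.5, leidenalg 0.10.2, resolution 1.0). Clusters mostly of members were reclustered at 0.3, and dendritic genes were barred from naming, both decided after seeing the data. Names mean "like". Scrublet marked 10 of 7532 barcodes (0.133%), too few for a working caller, so doublets were kept.

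Named genes were the 12 highest and 12 lowest by smallest absolute log2 ratio, plus members of the lists. The members and lists were chosen with earlier results of these data known. The calling rule was tried on counts drawn at random around summed counts. That simulation had no variation between barcodes or classes, so it cannot show how often the rule errs in these data. Some named genes are not reported here.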

Additional observations from a re-analysis of the deposited data

Results flagged for a closer look

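Marker lists for 3 cell types differed from control in direction, with counting intervals on opposite sides of equality. With 1 library per group these differences were not tested. Cajal-Retzius markers had a ratio of band over barcodes under 10% of 1.46 in the runner library (6.78 against 4.65 per 10000) and of 0.526 in the control library (2.56 against 4.87 per 10000). Cycling markers had a ratio of 0.721 in the runner library and of 1.36 in the control library. Choroid plexus markers had a ratio of 1069 (interval 295 to 8841) in the aged library and of 0.00512 (0.00062 to 0.0186) in the control library, and both rested on Ttr in single barcodes: 832 of 833 Ttr UMIs of the aged band and 793 of 797 Ttr UMIs of the control barcodes under 10% came from 1 barcode each.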

How the results depend on the processing

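No paired analysis was possible because each group had 1 library. Lists are given here as the mean log2 ratio over the 3 libraries. In the main setting the mean was 0.985 for granule neuron markers, -0.676 for oligodendrocyte markers and -0.937 for microglia markers. The granule neuron list shares Camk2a and Nrgn with the dendritic list. Of its 3 tested members only Camk2a was called higher, so its values are not independent of dendritic mRNA. Of 464 recomputed values, none of the main results reversed and 7 others did. Counts of members and genes and class shares had no label for reversal. Of the main values, 90 stayed within the set limit and 36 moved past it. The limit was 1.5-fold for counts and the standard deviation between libraries for the rest. The cause of each shift was not tested.

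With 20% as the upper limit, the band held 122 runner, 112 aged and 241 control members. At 2-fold, 51 genes were higher and 26 lower. At a minimum of 50 UMIs, 228 were higher and 196 lower. With all UMIs as the denominator the log2 ratio of every gene shifted by -0.23; 81 genes were higher and 250 lower, granule neuron markers stood at 0.75, oligodendrocyte markers at -0.91, microglia markers at -1.17, nuclear long noncoding RNA at -0.82, ribosomal protein mRNA at 0.24 and respiratory chain mRNA at 0.49, and the mitochondrial import list reversed to -0.17.

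For members from 20 to 30%, 198 genes were lower, granule neuron markers stood at 1.33, oligodendrocyte markers at -0.86, microglia markers at -1.05, nuclear long noncoding RNA at -1.17, ribosomal protein mRNA at 0.73, respiratory chain mRNA at 1.04 and dendritic mRNA at 2.60, while endothelial (-0.28) and choroid plexus markers (-4.18) reversed. As means of barcode shares, granule neuron markers stood at 1.25, nuclear RNA at -0.68 and respiratory chain mRNA at 0.85, and cycling markers reversed to 0.17. Thinned to 400 UMIs, granule neuron markers stood at 1.20, oligodendrocyte markers at -0.57, nuclear RNA at -0.66 and respiratory chain mRNA at 0.82. Another setting, chosen after seeing the data, left out cluster 5a and hemoglobin-rich members. In it granule neuron markers stood at 0.82, nuclear RNA at -0.45 and ribosomal protein mRNA at 0.39. Respiratory chain mRNA stood at 0.67 and endothelial markers at 0.26. Hemoglobin genes reversed to -0.82, but hemoglobin-rich barcodes under 10% were kept, so nothing is read from this reversal. With only hemoglobin-rich barcodes left out, of both sets, hemoglobin genes stood at 5.76, 1.76 and 32.7 per 10000 in the runner, aged and control bands. Under 10% the levels were 2.81, 1.56 and 2.80.

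Microglia-like barcodes averaged 28.6% of the band over the libraries, 38.2% at resolution 0.5 and 38.3% without reclustering, which was chosen after seeing the data. Leaving out each library in turn, Cajal-Retzius markers ranged from -0.50 to 0.23, positive without the control library, and choroid plexus markers from -3.66 to 4.85, negative without the aged library. Low UMI numbers limited rare types: perivascular, T or NK, B cell and ependymal markers gave under 1 UMI per 10000 in both sets.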

Other observations

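Actb, the cytoskeletal beta actin, was the abundant cytosolic mRNA with the widest spread between libraries. It stood at 29.7 per 10000 in the runner band, 105 in the aged and 149 in the control band, against 47.3, 80.6 and 82.8 under 10%, so that its ratios of 0.629, 1.30 and 1.80 lay on both sides of equality. Tmsb4x, which encodes an actin-binding thymosin, was lower in each, with 0.597, 0.767 and 0.773. Fth1, the ferritin heavy chain, was higher in each, with 1.48, 1.32 and 1.37, while the light chain gene Ftl1 had 0.680, 0.837 and 0.790.

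Kinesin genes of neurons beyond Kif5a were also called higher, chosen here after their values were seen. Kif5c had ratios of 3.96, 3.79 and 2.97 in the runner, aged and control libraries, and Kif1a had 2.49, 2.27 and 2.82. Gm42418, annotated as a long intergenic RNA at chr17:39846958-39848788 (plus strand, GRCm38), had 2.65, 2.72 and 2.16.

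GABAergic neuron markers were rare, with 1.13, 0.579 and 0.724 per 10000 in the runner, aged and control bands, against 0.323, 0.139 and 0.246 under 10%, and no cluster took that name.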
